A study of Mus musculus with 24 samples.

Results

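Amino acid transporters of the solute carrier families were followed in the mouse mammary gland from the virgin state to late pregnancy, with and without a mutation of the signalling inhibitor SOCS2. Members were all non-control array probes named Slc1a, Slc3a, Slc7a, Slc36a, Slc38a or Slc43a with a number, plus Slc6a14. This took 81 of 56605 probes, which belong to 43 genes. Of these, 57 probes of 33 genes passed a detection filter (signal well above background on 80% or more of the arrays in any 1 group) and were tested together with all 22382 genes that passed it. The rule goes by gene name and uses no values, though the members were chosen with earlier results of these data known.

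The arrays measured RNA from the number 4 inguinal mammary gland, with its lymph node taken out, of female C57BL/6 mice. Virgins aged 8 weeks made up the first pair of groups, 7 of them wild type and 7 carrying the SOCS2 R96C knock-in allele in homozygous form. The second pair, at day 18 of pregnancy, had 5 wild-type and 5 knock-in animals, so there are 4 groups. Each array holds 1 animal, and no sample was pooled. The age of the pregnant mice is not in the labels, so pregnancy and age cannot be told apart, and the genotypes are those of the labels, since expression probes cannot tell alleles that differ by 1 base.

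Transporters of this kind bring amino acids across the plasma membrane or out of lysosomes, and each family handles a preferred set, such as large neutral, cationic or acidic amino acids. The SLC3 proteins are heavy chains that carry several SLC7 light chains to the cell surface, where the pair exchanges 1 amino acid for another, while SLC38 and SLC1 proteins draw on ion gradients. In late pregnancy the secretory epithelium prepares to make milk protein and has to take its amino acids from the blood. SOCS2 is a feedback inhibitor of cytokine signals that act through STAT5, the factor that carries the prolactin signal.

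Of the 33 tested members, 11 rose and 8 fell between the virgin and the day-18 gland in wild-type mice, and 14 did not pass. This is 57.6% of the members, against 41.8% of all tested genes (20.9% higher and 20.9% lower). In knock-in mice 12 rose and 8 fell, 60.6% against 43.2% of all genes (22.9% higher and 20.3% lower). Scaled to the spike-in probes, 6 rose and 19 fell in wild type and 8 rose and 12 fell in knock-in mice. With that scaling 7.72% and 10.5% of all called genes were higher, and the median over all genes was −0.90 and −0.78. Slc7a11, counted among those that rose, passed the filter only through the day-18 groups, where it is high. The median log2 difference of the members was −0.062 in wild type and 0.094 in knock-in, beside 0.013 and 0.052 for all genes. In wild type 16 of the 33 differences were above 0, and in knock-in mice 17. The wild-type groups did not overlap for 9 members that were higher and 7 that were lower at day 18 (20.3% and 18.9% of all genes), and the knock-in groups did not overlap for 7 and 4 (12.6% and 7.65% of all genes).

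The stage comparisons of the 2 genotypes share no animal. All 19 members called in wild type were also called in knock-in mice, in the same direction, Slc7a6 was called in knock-in mice alone, and 13 members were called in neither. Across the 33 members the wild-type and knock-in differences had a Pearson r of 0.976 and a Spearman rho of 0.954, and 30 had the same sign. The points share the array design and the probes, and the 4 groups share 1 estimate of the spread, so the 2 sets of calls are not independent. The same figures were not computed over all genes, so this agreement is not shown to be particular to the members.

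**Figure D1:**
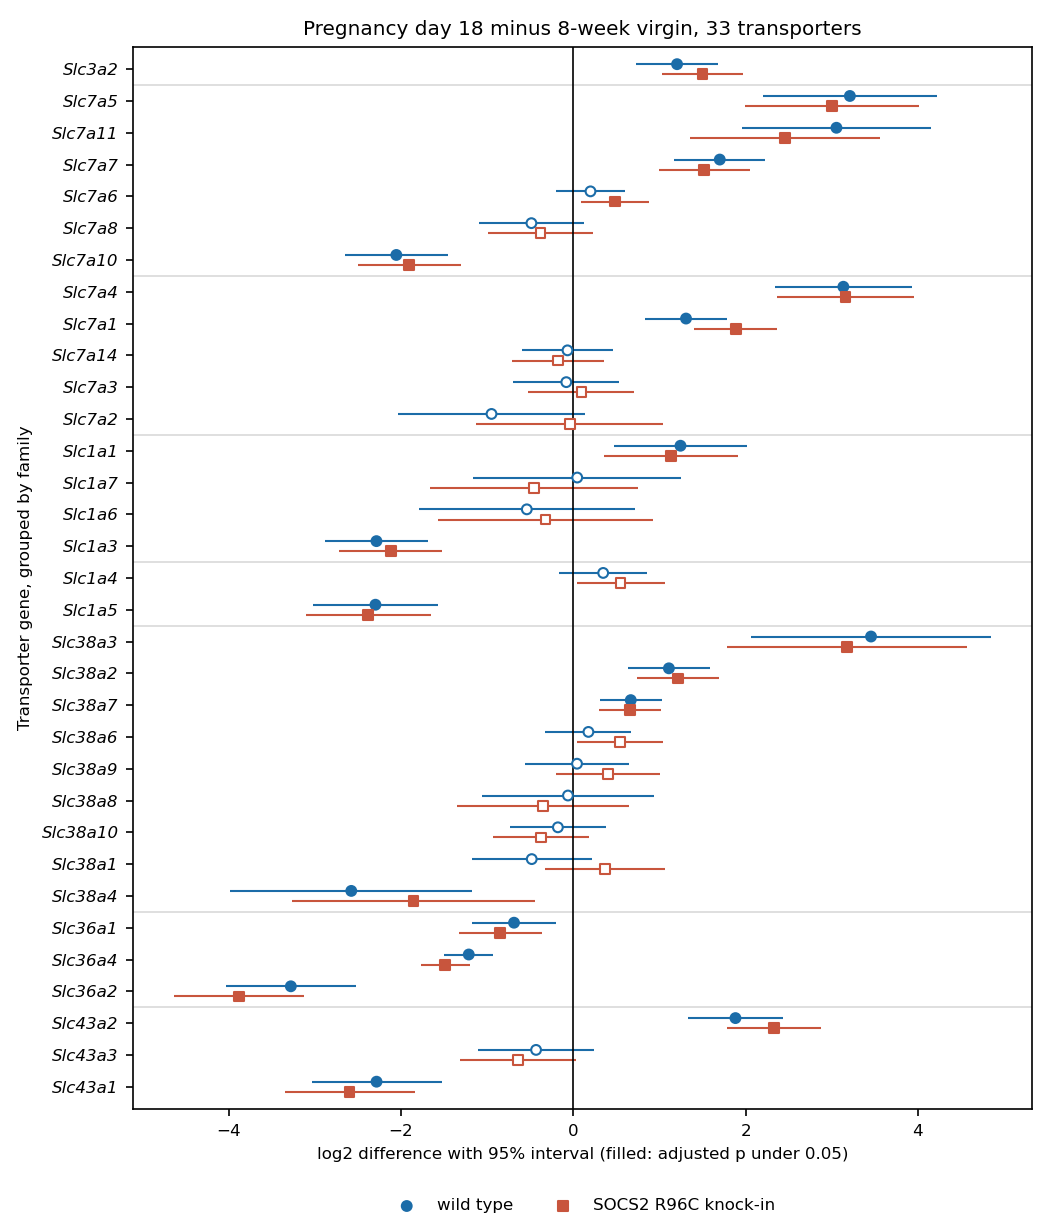
Log2 difference between day 18 and the 8-week virgin for the 33 tested members, with 95% intervals, in wild type (circles) and SOCS2 R96C knock-in mice (squares), grouped by family; filled symbols have an adjusted p under 0.05. The filled symbols lie on both sides of 0, 11 above and 8 below in wild type, and the 2 genotypes move together.

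Cell type markers moved between the same groups. Of the luminal epithelium markers 10 of 18 rose and 1 fell in wild type, and their mean log2 signal spanned −0.47 to 1.72 among virgins of wild type, −3.81 to 1.28 among knock-in virgins, 2.44 to 2.90 among wild-type and 2.55 to 2.98 among knock-in day-18 glands. Basal and myoepithelial markers rose in 6 of 10 cases, with ranges of 1.41 to 3.03, 0.085 to 3.15, 4.08 to 4.25 and 3.79 to 4.22 in the same order. White adipocyte markers fell in 8 of 13 cases (5.14 to 5.43, 3.57 to 5.60, 3.73 to 4.18 and 2.74 to 4.04), fibroblast markers in 10 of 10 (5.40 to 6.01, 3.91 to 5.96, 3.03 to 4.16 and 2.74 to 4.39), and macrophage markers in 9 of 10 (3.14 to 4.44, 2.51 to 4.60, 1.97 to 2.82 and 1.91 to 3.09). With median scaling 4 adipocyte, 4 fibroblast and 2 macrophage markers passed in wild type. Of 10 skeletal muscle markers 1 fell in wild type and 0 passed in knock-in mice. Their mean signal varied widely between animals (−3.56 to 6.85, −1.78 to 7.46, −4.22 to 0.46 and −4.22 to 5.89). Between genotypes at day 18 the median difference of the muscle list was 3.62, and 0 of its genes passed. Of the defining epithelial markers, Krt8, Krt18, Cdh1 and Krt14 were above background on every array, and Epcam on all but 1 of the 7 knock-in virgin arrays. In wild type the stages overlapped for Krt8 (virgins 3.66 to 6.58, day 18 5.37 to 6.19) and Krt18 (4.35 to 6.94 and 6.30 to 6.78). Epcam, Cdh1 and Krt14 did not overlap and were higher at day 18. In bulk tissue, more cells of a type and more RNA per cell cannot be told apart, and the part of these cell types in the transporter results was not tested.

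**Figure D2:**
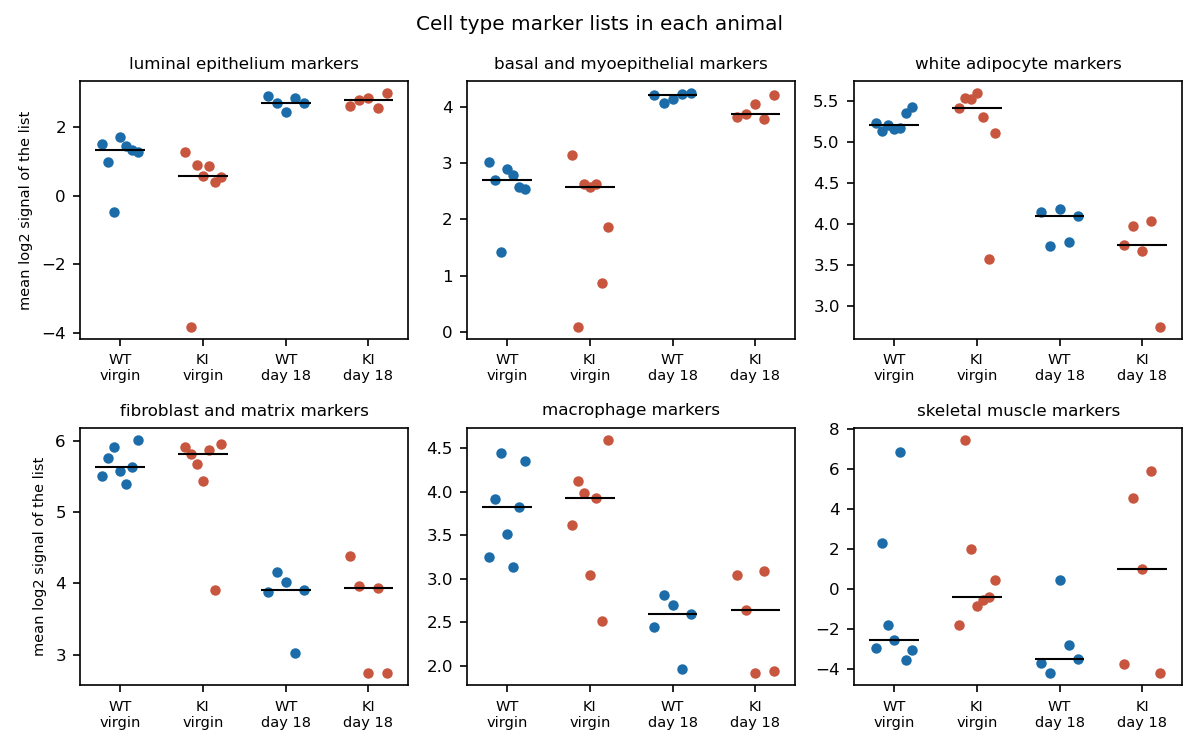
Mean log2 signal of 6 cell type marker lists on each array (points) with the group median (line), by group; signals are relative to each array's 75th percentile. Luminal and basal lists are higher, and adipocyte, fibroblast and macrophage lists lower, at day 18; knock-in virgin 198 has the lowest luminal score, −3.81, and the highest muscle score of its group, 7.46.

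Knock-in virgin 376 stands apart: 57003 of 59305 spots counted as well above background there, against 33374 to 43055 on the other arrays, and its members lie far from the other knock-in virgins in many cases. Without this array 11 members rose and 10 fell in knock-in mice, with 55.3% of all genes called. Without knock-in virgin 198, which has the highest muscle score (7.46), 11 rose and 7 fell. Muscle scores were also high in wild-type virgin 320 (6.85) and in knock-in day-18 mice 211 (5.89) and 184 (4.52). Mouse 376 is named beside each gene where it alone makes the groups overlap.

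Slc3a2 (CD98), the heavy chain for which LAT1, y+LAT and xCT are light chains, was the only tested heavy chain and rose. Wild-type virgins ranged from 3.53 to 3.89 (median 3.59), and the day-18 glands had 5.23, 4.62, 4.80, 4.81 and 4.69. Knock-in virgins ranged from 1.83 to 3.77 (median 3.44), and the knock-in day-18 glands had 4.75, 4.80, 4.81, 4.81 and 4.74. All day-18 glands were above all virgins of their genotype, and the 5 knock-in day-18 glands had an SD of 0.034. The rise was 2.3-fold in wild type (log2 1.20 ± 0.23, adjusted p = 0.000187) and 2.83-fold in knock-in mice (1.499 ± 0.23, adjusted p = 1.47e-05). The wild-type call ended with median scaling (adjusted p = 0.0632) and spike-in scaling (adjusted p = 0.3).

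Of 6 tested light chains, 3 rose, 1 fell and 2 did not pass in wild type. Slc7a5 (LAT1), the exchanger of leucine and other large neutral amino acids for glutamine, had the largest rise among those measured at both stages. Its values ranged from −5.76 to −3.98 (median −4.67) in wild-type virgins and were −1.68, −1.67, −1.26, −1.40 and −1.45 in the 5 day-18 glands. Among knock-in mice the virgins ranged from −5.35 to −1.33 (median −4.93), and day-18 glands had −1.47, −2.004, −1.16, −0.68 and −1.25. Wild-type groups were far apart, and in knock-in mice the single overlap came from virgin 376 at the top of its group. The rise was 9.26-fold (3.21 ± 0.49, adjusted p = 1.49e-05) and 8.02-fold (3.004 ± 0.49, adjusted p = 3.01e-05). The array holds 1 probe for it, at chr8:124430996-124431055 on mm9, starting at base 533 of its reference transcript, so the value has no second probe beside it.

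Slc7a7 (y+LAT1), which exchanges cationic for neutral amino acids, ranged from 0.78 to 1.27 (median 1.11) in wild-type virgins and had 3.37, 2.21, 3.34, 2.52 and 2.40 at day 18. Knock-in virgins ranged from 0.026 to 1.76 (median 0.66) and the knock-in day-18 glands had 2.20, 2.97, 2.004, 1.88 and 2.08. Neither genotype had a day-18 gland as low as its highest virgin. The difference was 1.70 ± 0.26 in wild type (3.25-fold, adjusted p = 1.29e-05) and 1.52 ± 0.26 in knock-in mice (2.87-fold, adjusted p = 4.57e-05). Its close relative Slc7a6 (y+LAT2) did not pass in wild type (0.20 ± 0.19, adjusted p = 0.433) and passed in knock-in mice by a small margin (0.49 ± 0.19, adjusted p = 0.0434). That call ended when any of 13 of the 24 animals was left out, with a highest adjusted p of 0.12, and its sign turned with spike-in scaling (−0.35), and within slides the difference ran from −0.024 to 0.87.

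Slc7a11 (xCT), which takes up cystine in exchange for glutamate, rose from a signal that was not well above background in virgins. Its probe was well above background on 0 of 7 wild-type and 0 of 7 knock-in virgin arrays and on 4 of 5 day-18 arrays of each genotype. Wild-type virgins ranged from −8.21 to −6.51 (median −8.01), and the day-18 glands had −5.24, −4.58, −4.66, −4.89 and −4.62. In the knock-in animals, virgins ranged from −8.33 to −3.76 (median −7.74) and day-18 glands had −4.52, −4.13, −4.68, −5.41 and −4.31. The knock-in groups overlapped through virgin 376. With the virgins at a bound, the signal was at least 2.01-fold higher at day 18 in wild type and at least 1.63-fold in knock-in mice; the bound sets the day-18 mean against the lowest signal well above background on each virgin array, or the probe's own where that is higher. The fit gave adjusted p = 7.16e-05 and adjusted p = 0.000651, but it used the virgin values below background as they stand and does not test the bound. The other 3 Slc7a11 probes did not pass the filter, and the 1 that did lies at chr3:50176047-50176106 on mm9.

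Slc7a10 (Asc-1), a transporter of small neutral amino acids that is known as a marker of white fat cells, fell. Wild-type virgins ranged from 3.18 to 3.98 (median 3.57), the wild-type day-18 glands had 1.60, 1.53, 1.76, 1.43 and 1.34, knock-in virgins ranged from 1.81 to 3.94 (median 3.70), and knock-in day-18 glands had 1.60, 1.67, 1.69, 2.14 and 0.62. The wild-type groups were more than 1 log2 unit apart, and virgin 376 made the knock-in groups overlap. The fall was 4.15-fold (−2.05 ± 0.29, adjusted p = 5.67e-06) in wild type and 3.75-fold (−1.90 ± 0.29, adjusted p = 1.33e-05) in knock-in mice. Slc7a8 (LAT2), a further exchanger of neutral amino acids, did not pass (−0.49 ± 0.29 and −0.38 ± 0.29).

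Promoter sequence was looked at because Slc7a11 is a known target of ATF4, the factor of the amino acid response, and because pregnancy acts through STAT5. RefSeq windows on GRCm38.p6 were found for 32 of the 43 members and the 250 bases before each start were searched on both strands for TGATGNAAN, a C/EBP-ATF element, and for the STAT5 element TTCNNNGAA. The first was found in Slc7a11 and Slc7a7, 2 of 32 members (6.25%) against 3.89% of 27025 genes. The second was found in Slc7a11, Slc7a1, Slc1a3 and Slc38a9, 4 of 32 (12.5%) against 8.13%. A match is a description of the letters and not of binding. Slc1a5, Slc36a2, Slc38a1, Slc38a3, Slc43a3, Slc7a12, Slc7a13, Slc7a2, Slc7a3, Slc7a4 and Slc7a5 had no window. Capitals mark the matches in windows before the outermost start of members that were called between stages. These windows are chr3:50443614-50443863 for Slc7a11, chr14:54417945-54418194 for Slc7a7 and chr15:8710808-8711057 for Slc1a3, all on the minus strand.

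Slc7a11: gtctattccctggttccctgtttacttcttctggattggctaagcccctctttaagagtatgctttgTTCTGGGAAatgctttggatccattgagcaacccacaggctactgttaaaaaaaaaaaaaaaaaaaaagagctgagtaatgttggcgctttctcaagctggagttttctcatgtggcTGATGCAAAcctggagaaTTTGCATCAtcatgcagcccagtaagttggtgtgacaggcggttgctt

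Slc7a7: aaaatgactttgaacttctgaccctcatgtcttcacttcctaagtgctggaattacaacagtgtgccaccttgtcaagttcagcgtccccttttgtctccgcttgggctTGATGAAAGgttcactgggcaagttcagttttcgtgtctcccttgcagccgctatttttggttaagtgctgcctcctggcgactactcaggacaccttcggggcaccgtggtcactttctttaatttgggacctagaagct

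Slc1a3: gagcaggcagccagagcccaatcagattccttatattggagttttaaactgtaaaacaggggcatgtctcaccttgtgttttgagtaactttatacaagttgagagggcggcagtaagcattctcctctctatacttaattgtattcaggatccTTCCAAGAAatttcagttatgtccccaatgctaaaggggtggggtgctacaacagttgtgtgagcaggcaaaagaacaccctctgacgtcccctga

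The Slc7a11 window holds 2 C/EBP-ATF matches on opposite strands, TGATGCAAA and TTTGCATCA, starting 66 and 48 bases before the start, and 1 STAT5 match, TTCTGGGAA, 183 bases before it. In Slc7a7 the match TGATGAAAG lies 141 bases before the start. Slc1a3, a gene that fell, holds the STAT5 match TTCCAAGAA 96 bases before its start, so the element was found in genes of both directions.

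Of 5 tested members of the cationic family, 2 rose and 3 did not pass, in both genotypes. Slc7a1 (CAT-1), the general carrier of arginine and lysine, ranged from 0.92 to 1.39 (median 1.32) in wild-type virgins and had 3.11, 2.34, 2.73, 2.37 and 2.22 at day 18. Knock-in virgins ranged from −0.29 to 1.30 (median 0.92), with 2.33, 2.65, 2.91, 2.37 and 3.23 in the day-18 glands. All day-18 values lay above all virgin values of the genotype. The rise was 2.48-fold in wild type (1.31 ± 0.23, adjusted p = 8.9e-05) and 3.69-fold in knock-in mice (1.88 ± 0.23, adjusted p = 9.01e-07), and the difference between these rises did not pass (0.58 ± 0.33, adjusted p = 1). The wild-type call ended with spike-in scaling (adjusted p = 0.125).

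Slc7a4, a member of the cationic family by sequence, rose more. Its virgin values ranged from −1.19 to 0.068 (median −0.37) in wild type and from −2.76 to 0.22 (median −0.49) in knock-in mice, and its day-18 values were 3.37, 2.01, 3.46, 2.53 and 2.18 in wild type and 2.36, 3.05, 2.51, 1.88 and 2.56 in knock-in mice. Virgins and pregnant mice were far apart in both genotypes, and the lowest virgin was mouse 198, the animal with the low luminal score. The rise was 8.79-fold (3.14 ± 0.38, adjusted p = 9.54e-07) and 8.94-fold (3.16 ± 0.38, adjusted p = 7.76e-07). Slc7a2 (CAT-2), the arginine carrier induced in activated macrophages, had differences of −0.95 ± 0.52 in wild type (adjusted p = 0.155) and −0.043 ± 0.52 in knock-in mice (adjusted p = 0.959). The wild-type difference passed without virgin 317 (−1.39, adjusted p = 0.00993) and with array weights (−1.40, adjusted p = 0.00812). Slc7a3 (CAT-3) had −0.081 ± 0.30 and 0.094 ± 0.30, and Slc7a14, a lysosomal relative, had −0.067 ± 0.26 and −0.18 ± 0.26.

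The sodium-coupled neutral family Slc38 had the most members: 3 of 9 rose, 1 fell and 5 did not pass in each genotype. Slc38a3 (SNAT3), a glutamine, histidine and asparagine carrier, had the largest rise of the members measured at both stages. Its wild-type virgins ranged from −5.56 to −3.16 (median −4.92), and its wild-type day-18 glands had −1.15, −1.78, −1.14, −1.54 and −1.37. The knock-in virgins were spread from −6.23 to −0.45 (median −5.33), with −0.93, −1.02, −1.005, −1.32 and −1.25 at day 18. The 10 day-18 glands were tightly grouped, and the only virgin that reached them was mouse 376. The rise was 11-fold in wild type (3.46 ± 0.67, adjusted p = 0.000242) and 9.03-fold in knock-in mice (3.18 ± 0.67, adjusted p = 0.000542).

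Slc38a2 (SNAT2), the small neutral amino acid carrier that cells raise when starved of amino acids, ranged from 1.85 to 2.27 (median 2.002) in wild-type virgins and had 3.56, 2.94, 3.24, 2.81 and 2.99 at day 18. Knock-in virgins ranged from 0.54 to 2.13 (median 1.71), and the day-18 glands had 3.43, 3.17, 2.37, 2.76 and 2.50. No day-18 value fell among the virgins of its genotype. The rise was 2.16-fold (1.11 ± 0.23, adjusted p = 0.000406) and 2.32-fold (1.22 ± 0.23, adjusted p = 0.000152). The wild-type call ended with median scaling (adjusted p = 0.0636), and both calls with spike-in scaling (adjusted p = 0.56 and 0.252). Slc38a7 (SNAT7), which exports glutamine from lysosomes, rose 1.59-fold (0.67 ± 0.17, adjusted p = 0.00348) and 1.58-fold (0.66 ± 0.17, adjusted p = 0.00355), but when arrays were scaled to the spike-in probes it turned to −0.25 and −0.17, and both calls ended with quantile normalization (adjusted p = 0.314 and 0.0684) and median scaling (adjusted p = 0.205 and 0.194).

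Slc38a4 (SNAT4), an imprinted carrier best known from liver and placenta, fell. In wild type the virgins ranged from −3.06 to 0.014 (median −1.78) and the day-18 glands had −4.72, −3.86, −4.12, −4.46 and −3.81, which did not overlap. In knock-in mice the virgins ranged from −3.47 to 1.17 (median −1.59) and the day-18 glands had −3.82, −2.86, −4.78, −1.35 and −4.99, and these ranges overlapped widely. The highest knock-in virgin was mouse 198, with a skeletal muscle score of 7.46. In the same order, the muscle scores of the 5 knock-in day-18 glands were −3.73, 4.52, 0.98, 5.89 and −4.22. A part of muscle in this spread was not tested. The fall was 5.97-fold in wild type (−2.58 ± 0.68, adjusted p = 0.00374) and 3.62-fold in knock-in mice (−1.86 ± 0.68, adjusted p = 0.0306). The knock-in call ended without any of 5 animals, with a highest adjusted p of 0.106, and under 5 processing alternatives (adjusted p = 0.059 to 0.175), and within slides its difference ran from −2.89 to 0.81.

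The other 5 members of this family did not pass in either genotype. Slc38a1 (SNAT1), a glutamine carrier, had differences of −0.48 ± 0.34 in wild-type and 0.37 ± 0.34 in knock-in glands. Slc38a9, the lysosomal arginine sensor that acts on mTORC1, had 0.043 ± 0.29 and 0.40 ± 0.29. Slc38a6 had 0.18 ± 0.24 and 0.54 ± 0.24, Slc38a8 had −0.062 ± 0.48 and −0.35 ± 0.48, and Slc38a10 had −0.18 ± 0.27 and −0.37 ± 0.27. Slc38a10 passed in knock-in mice when virgin 376 was left out, with −0.63 (adjusted p = 0.00488).

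**Figure D3:**
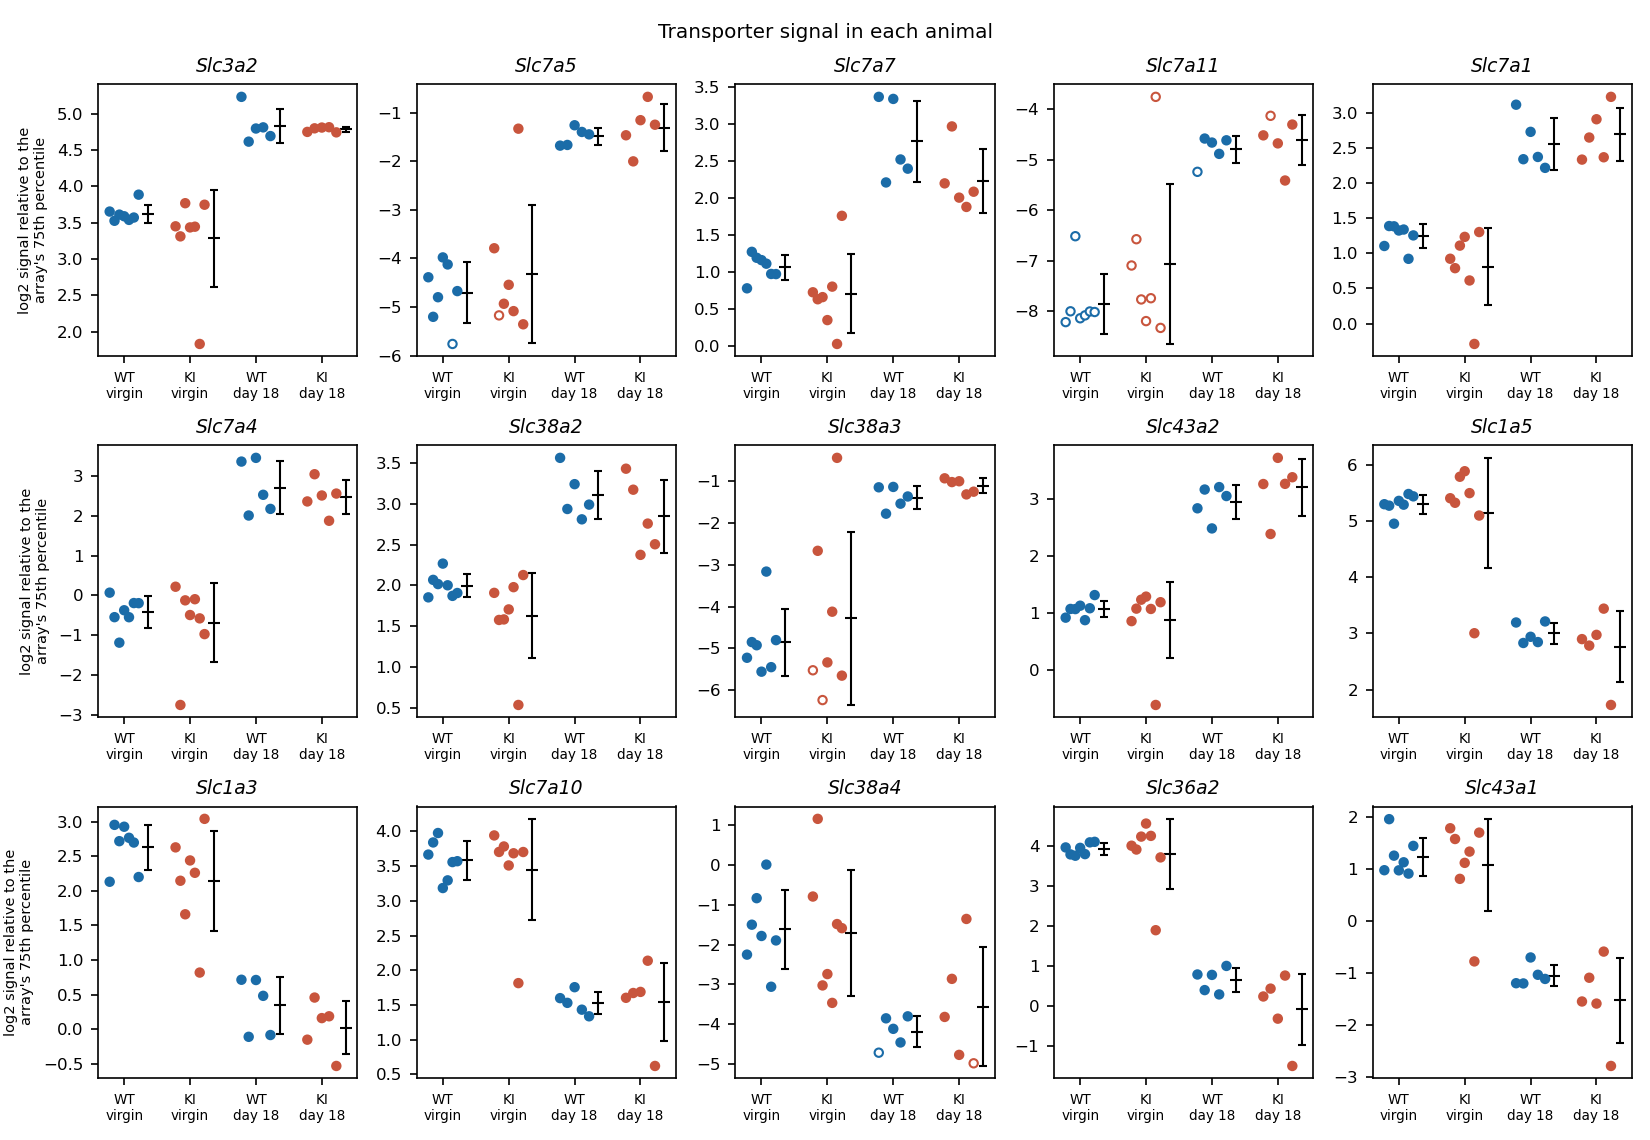
Log2 signal relative to the array's 75th percentile of 15 members in each animal (filled points well above background, open points not), with mean and SD beside each group, in wild type (WT) and knock-in (KI) mice. In Slc7a5, Slc7a11 and Slc38a3 a single knock-in virgin, mouse 376, lies at the level of the day-18 glands; Slc38a4 overlaps between stages in knock-in mice.

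The SLC1 family moved in both directions. Slc1a5 (ASCT2), the sodium-dependent exchanger of glutamine and other small neutral amino acids, fell, while its relative Slc1a4 (ASCT1) did not pass (0.35 ± 0.25 and 0.55 ± 0.25). For Slc1a5 the wild-type virgins ranged from 4.95 to 5.48 (median 5.30) and the day-18 glands had 3.195, 2.83, 2.94, 2.85 and 3.21. The knock-in virgins lay from 3.004 to 5.89 (median 5.41) and their day-18 counterparts at 2.90, 2.78, 2.97, 3.44 and 1.73. The wild-type groups were well apart, and virgin 376 overlapped the knock-in day-18 glands. The fall was 4.91-fold (−2.30 ± 0.35, adjusted p = 1.59e-05) and 5.21-fold (−2.38 ± 0.35, adjusted p = 9.31e-06).

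Among 4 tested glutamate transporters, Slc1a1 (EAAT3, the carrier of epithelia and neurons) rose and Slc1a3 (GLAST, the astrocyte carrier) fell. Slc1a1 ranged from −4.52 to −2.73 (median −3.19) in wild-type virgins and from −3.53 to −1.13 (median −2.87) in knock-in virgins, and had −1.43, −2.20, −2.81, −2.03 and −2.33 in wild-type and −1.81, −1.25, −1.27, −1.53 and −1.88 in knock-in day-18 glands. Its stages overlapped in both genotypes, through the wild-type day-18 mouse 233 and the knock-in virgin 376. The rise was 2.37-fold (1.24 ± 0.37, adjusted p = 0.00971) and 2.19-fold (1.13 ± 0.37, adjusted p = 0.0171), and neither call held with spike-in scaling (adjusted p = 0.472 and 0.52).

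Slc1a3 ranged from 2.13 to 2.95 (median 2.72) in wild-type virgins and from 0.82 to 3.04 (median 2.26) in knock-in virgins, with 0.72, −0.11, 0.71, 0.48 and −0.084 and −0.15, 0.46, 0.16, 0.19 and −0.53 at day 18. Every virgin was above every pregnant mouse of its genotype. The fall was 4.88-fold (−2.29 ± 0.29, adjusted p = 1.45e-06) in wild type and 4.34-fold (−2.12 ± 0.29, adjusted p = 3.41e-06) in knock-in mice. Slc1a6 (EAAT4) and Slc1a7 (EAAT5), carriers known from brain and retina, were each well above background on only 1 of 5 wild-type day-18 arrays, so their fitted differences are not measured changes. Their adjusted p values were 0.51 and 0.961 in wild type.

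All 3 tested members of the proton-coupled family Slc36 fell in both genotypes. Slc36a2 (PAT2), a carrier of glycine and proline that is known as a surface marker of brown and beige fat cells, had the largest fall of all members. It ranged from 3.76 to 4.11 (median 3.96) in wild-type virgins and from 1.90 to 4.57 (median 4.01) in knock-in virgins. The wild-type day-18 glands had 0.79, 0.39, 0.78, 0.29 and 1.001 and the knock-in day-18 glands 0.23, 0.43, −0.32, 0.76 and −1.51. No virgin was as low as a pregnant mouse of its genotype, mouse 376 included. The fall was 9.71-fold (−3.28 ± 0.36, adjusted p = 2.38e-07) and 14.8-fold (−3.88 ± 0.36, adjusted p = 1.99e-08).

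Slc36a4 (PAT4) fell 2.32-fold in wild type (−1.21 ± 0.14, adjusted p = 2.96e-07) and 2.8-fold in knock-in mice (−1.49 ± 0.14, adjusted p = 1.54e-08), with no overlap in either. The wild-type call ended under quantile normalization (adjusted p = 0.305) and median scaling (adjusted p = 0.0595), and the knock-in call under quantile normalization (adjusted p = 0.21). Slc36a1 (PAT1), the lysosomal proton-coupled carrier, fell 1.61-fold (−0.69 ± 0.23, adjusted p = 0.0205) and 1.8-fold (−0.85 ± 0.23, adjusted p = 0.00505). Its wild-type call ended without mouse 233 or mouse 235, with a highest adjusted p of 0.0763, and under 4 processing alternatives (adjusted p = 0.0713 to 0.452). In knock-in mice the call ended with median scaling (adjusted p = 0.116) and with the mean over probes (adjusted p = 0.339).

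The facilitative family Slc43 split. Slc43a2 (LAT4), a carrier that lets leucine, isoleucine, methionine and phenylalanine out of cells, rose. Its virgins ranged from 0.87 to 1.31 (median 1.07) in wild type and from −0.62 to 1.28 (median 1.07) in knock-in mice, and its day-18 glands had 2.83, 3.16, 2.48, 3.202 and 3.05 and 3.26, 2.38, 3.71, 3.26 and 3.38. The stages did not overlap in either genotype. The rise was 3.69-fold (1.88 ± 0.26, adjusted p = 5.69e-06) and 5.03-fold (2.33 ± 0.26, adjusted p = 3.06e-07).

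Slc43a1 (LAT3), which moves the same amino acids, fell. Wild-type virgins ranged from 0.90 to 1.95 (median 1.12) and the day-18 glands had −1.20, −1.21, −0.71, −1.04 and −1.12. With the knock-in allele the virgins ranged from −0.79 to 1.77 (median 1.33), and the day-18 glands had −1.56, −1.10, −1.60, −0.60 and −2.79. Virgin 376 alone fell among the knock-in day-18 values. The fall was 4.87-fold (−2.28 ± 0.36, adjusted p = 2.66e-05) and 6.05-fold (−2.60 ± 0.36, adjusted p = 5.01e-06). Slc43a3, a purine base transporter in spite of its family name, did not pass (−0.43 ± 0.33 and −0.64 ± 0.33), and passed in knock-in mice without virgin 376, with −0.88 (adjusted p = 0.00868).

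Members that failed the filter were Slc1a2, Slc36a3, Slc38a11, Slc38a5, Slc3a1, Slc6a14, Slc7a12, Slc7a13, Slc7a15 and Slc7a9. Slc6a14 (ATB0,+), a concentrative carrier of neutral and cationic amino acids, was well above background on 0 of 14 virgin arrays, on 3 of 5 wild-type day-18 arrays and on 2 of 5 knock-in day-18 arrays. Its wild-type day-18 values were −7.20, −4.24, −7.34, −4.54 and −4.52, and its knock-in day-18 values −5.42, −6.03, −4.54, −5.51 and −3.70. Wild-type virgins ranged from −8.13 to −6.80 (median −7.87) and knock-in virgins from −8.33 to −5.83 (median −7.63). Since it was not kept, no test was made of it, and in wild type the 2 undetected day-18 glands lay within the virgin range.

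Probes of the same gene were set beside each other for the 16 members with several measured probes. In wild type all probes gave the same call for 12 of them and none gave opposite called directions. For Slc3a2 the rises were 1.20 ± 0.23, 0.54 ± 0.16 and 0.69 ± 0.30, of which the last did not pass (adjusted p = 0.0709 over all probes). For Slc38a2 the second probe, annotated to another transcript, had 0.49 ± 0.20 (adjusted p = 0.0523), so the size of the rise depends on the probe. Slc38a1 had 1 of 4 probes that passed (−1.30 ± 0.43, adjusted p = 0.0196), and the second Slc36a1 probe had −0.13 ± 0.65 (adjusted p = 0.898). The 3 probes of Slc36a2 (−3.28, −3.43 and −3.80), the 3 of Slc43a2 (1.88, 1.65 and 1.16) and the pairs of Slc43a1 (−2.28 and −1.16), Slc7a10 (−2.05 and −1.34), Slc1a3 (−2.29 and −2.33), Slc38a4 (−2.58 and −2.23) and Slc1a1 (1.24 and 1.38) all passed.

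**Figure D4:**
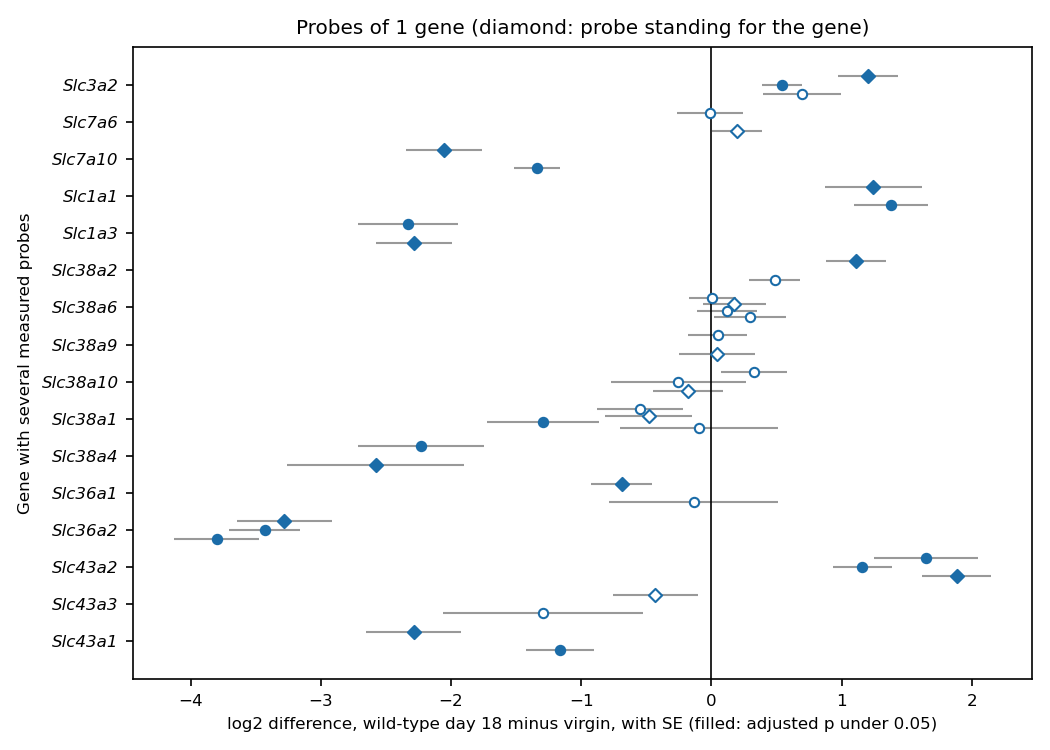
Log2 difference between wild-type day 18 and virgin glands for each measured probe of the 16 members with several, with its standard error; diamonds mark the probe that stands for the gene, and filled symbols have an adjusted p under 0.05. Probes of a gene lie on the same side of 0 wherever they pass, and those of Slc3a2 spread from 0.54 to 1.20.

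Does the R96C allele change transporter expression? In limma 0 of 33 members passed between genotypes in virgins and 0 at day 18 (0% of all genes in each), and 0 passed for the interaction (0% of all genes). At an unadjusted p under 0.05 the counts were 1 member in virgins, 0 at day 18 and 0 for the interaction, beside 3.58%, 1.97% and 1.02% of all genes. The genotype groups overlapped for all 33 members at both stages, as they did for all but 0.0134% of genes in virgins and 1.25% at day 18. Median standard errors were 0.27 in virgins and 0.32 at day 18, so single differences well under 1 log2 unit could not be told from 0. A call also had to pass the adjustment over all 22382 genes, so single differences of 1 log2 unit or more could go uncalled as well.

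The member with an unadjusted p under 0.05 was Slc1a1, which had 0.72 ± 0.34 in virgins (adjusted p = 0.702, 95% interval 0.017 to 1.43) and 0.61 ± 0.40 at day 18 (adjusted p = 1, interval −0.22 to 1.45). Over the splits of the animals, its two-sided exact permutation p was 0.114 in virgins and 0.0476 at day 18. In virgins the exact p was under 0.05 for Slc38a1 (exact p = 0.0268), Slc7a1 (exact p = 0.0338) and Slc38a2 (exact p = 0.0495), with 0.00058 the smallest that 7 against 7 animals can give. After Benjamini-Hochberg adjustment over the 33 members, the exact p was 0.461 for each of these in virgins and 0.654 for Slc1a1 at day 18. Slc38a1 had −0.59 ± 0.31 (adjusted p = 0.702), Slc7a1 had −0.43 ± 0.21 (adjusted p = 0.702) and Slc38a2 had −0.37 ± 0.21 (adjusted p = 0.702), all lower in knock-in virgins, and none passed over all genes. Without mouse 376 Slc7a1 was at −0.25, Slc38a2 at −0.18 and Slc1a1 at 0.47. At day 18 the same 3 had 0.26 ± 0.36, 0.14 ± 0.25 and −0.26 ± 0.25. Slc7a7 was −0.54 ± 0.28 and Slc36a2 −0.73 ± 0.39 at day 18, with adjusted p of 1 and intervals of −1.11 to 0.031 and −1.54 to 0.084. Without mouse 239 Slc36a2 was at −0.37. For the interaction, Slc38a1 had 0.85 ± 0.48 and Slc7a2 0.91 ± 0.74, both with an adjusted p of 1. These genes were chosen after their values were seen.

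**Figure D5:**
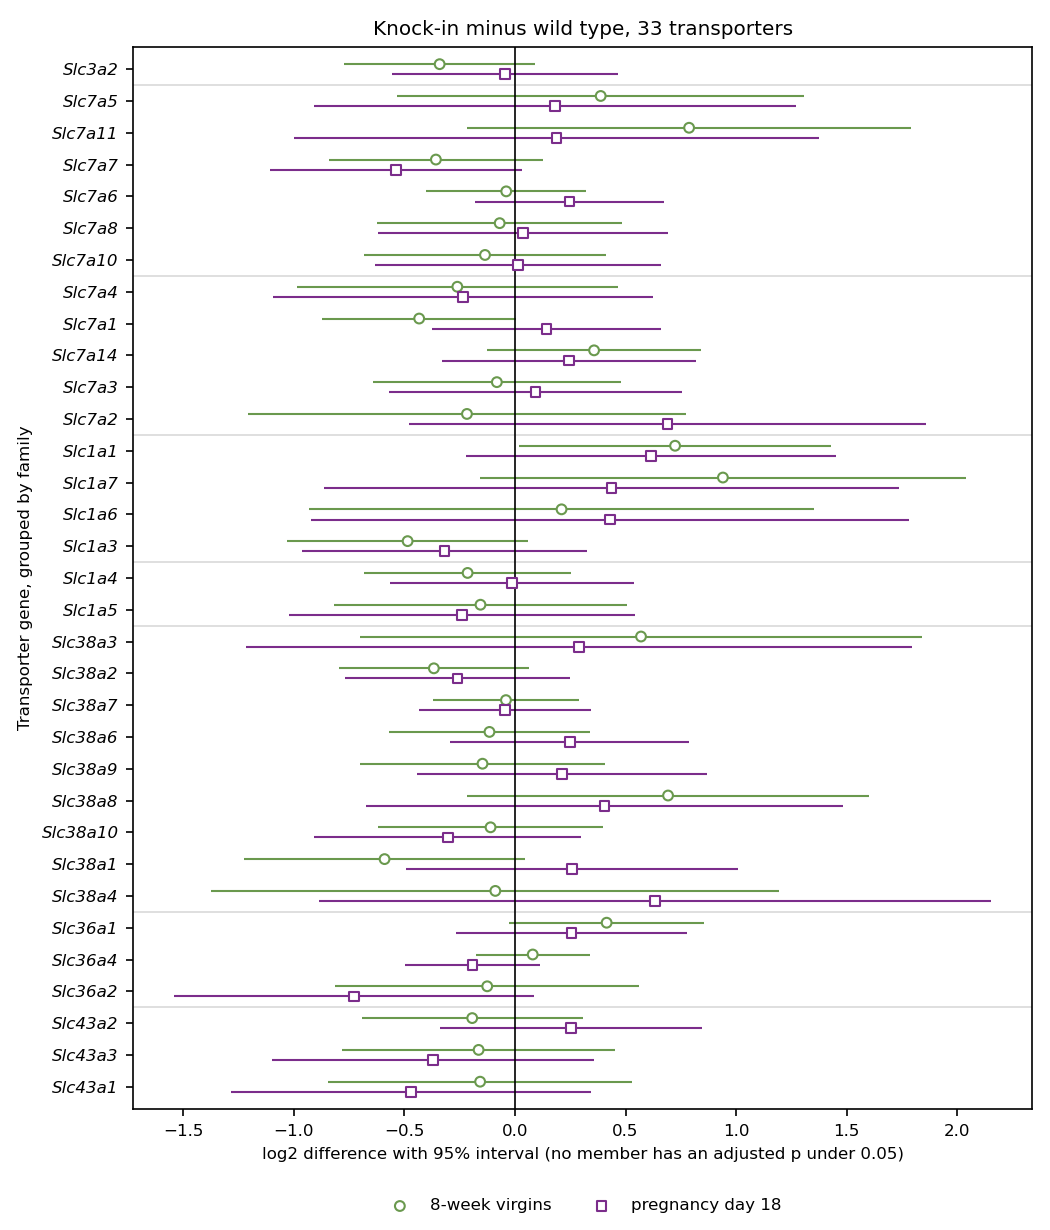
Log2 difference between knock-in and wild-type glands for the 33 tested members, with 95% intervals, in 8-week virgins (circles) and at day 18 of pregnancy (squares), grouped by family. No member has an adjusted p under 0.05, and the intervals of Slc1a1 in virgins, 0.017 to 1.43, are the only ones in virgins that leave out 0.

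Other genes of amino acid supply were counted in the same fit. Of 24 further amino acid transporters, 4 rose and 6 fell in wild type, and 6 rose and 6 fell in knock-in mice. This is beside 41.8% and 43.2% of all genes called. With spike-in scaling 0 rose and 14 fell, and 2 rose and 10 fell. Slc17a8 and Slc6a17 passed the filter only through virgins, and Slc6a15 and Slc25a18 only through day-18 glands. Each passed through the stage where it was detected more often, so the filter favours that direction. Slc16a10 (TAT1), the aromatic amino acid carrier, fell (−2.27 ± 0.25, adjusted p = 2.3e-07), as did the mitochondrial glutamate carrier Slc25a22 (−1.9999 ± 0.17, adjusted p = 5.19e-09). Slc17a8 (VGLUT3), a vesicular glutamate transporter, was well above background on 1 of 5 wild-type day-18 arrays and at least 2.1-fold lower there than in virgins. Of 22 amino acid response genes 7 rose and 3 fell in wild type, and 10 rose and 2 fell in the knock-in comparison. Of all genes 41.8% and 43.2% were called in these 2 comparisons. With spike-in scaling these were 1 and 13, and 1 and 10, and with median scaling 1 and 1, and 3 and 1. Among all called genes 7.72% and 10.5% were higher with spike-in scaling, and 53.3% and 53.5% with median scaling. Trib3, an ATF4 target, rose (2.20 ± 0.31, adjusted p = 5.42e-06), Gadd45a fell (−1.33 ± 0.26, adjusted p = 0.000242) and Nupr1 rose (1.23 ± 0.28, adjusted p = 0.000947).

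Cytosolic aminoacyl-tRNA synthetases, which load amino acids onto tRNA, rose in 11 of 20 cases in wild type and 15 of 20 in knock-in mice, and none fell. Of all genes 20.9% rose and 20.9% fell in wild type, and 22.9% rose and 20.3% fell in knock-in mice. With spike-in scaling 2 rose and 6 fell in wild type and 4 rose and 3 fell in knock-in mice, with median scaling 3 and 4 rose, and with quantile normalization 1 fell in each. Among all called genes 7.72% and 10.5% were higher with spike-in scaling, 53.3% and 53.5% with median scaling and 49.7% and 53.1% with quantile normalization. The median difference of the synthetases was 0.59 in wild type, beside 0.013 for all genes. It turned to −0.33 when arrays were scaled to the spike-in probes, where the median of all genes was −0.90. Qars had 1.75 ± 0.24 (adjusted p = 4.95e-06), Iars 1.46 ± 0.21 (adjusted p = 9.98e-06) and Vars 1.43 ± 0.25 (adjusted p = 9.27e-05). Of 28 amino acid sensing and mTORC1 genes 4 rose and 3 fell in wild type and 6 rose and 3 fell in knock-in mice. This is beside 41.8% and 43.2% of all genes called. With spike-in scaling 0 rose and 21 fell in wild type, and 0 rose and 14 fell in knock-in mice. Among those called in wild type were Rragd, a Rag GTPase, at 2.39 ± 0.93 (adjusted p = 0.0422), the arginine sensor family gene Castor2 at −1.36 ± 0.22 (adjusted p = 2.95e-05) and the leucine sensor family gene Sesn3 at 1.33 ± 0.22 (adjusted p = 3.86e-05). Of 37 genes of amino acid synthesis and breakdown 13 rose and 12 fell in wild type, beside 41.8% of all genes called. With spike-in scaling 7 rose and 20 fell. Lao1, the L-amino acid oxidase of milk, rose most (11.36 ± 0.996, adjusted p = 7.72e-09; well above background on 5 of 7 wild-type and 3 of 7 knock-in virgin arrays), Ass1, the arginine-synthesis enzyme argininosuccinate synthase, rose (3.66 ± 0.19, adjusted p = 1.6e-12) and Ido1, a tryptophan-degrading enzyme well above background on 1 of 5 wild-type day-18 arrays, was at least 273-fold lower there than in virgins. Lao1 passed the filter only through day 18, where it is high, and in wild type Ido1 passed it only in virgins. In these lists the knock-in differences of the named genes had the same sign as in wild type.

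The scaling of the arrays bears on directions. With spike-in scaling the median difference over all genes was −0.90 in the wild-type comparison and −0.78 in the knock-in one. Of all genes called in wild type, 50.1% were higher in the scaling used here, 59.6% with normexp background correction and 7.72% with spike-in scaling, and in knock-in mice 53%, 61.5% and 10.5%. Relative to the median of all genes, all 19 called members in wild type and all 20 in knock-in mice lay on the same side with normexp background correction and with quantile normalization. Median and spike-in scaling shift all genes of an array by 1 amount, so they cannot change that side. On each of the 3 slides the 19 wild-type members kept their sign, as did 18 of 20 in knock-in mice. The exceptions were Slc38a4 and Slc7a6. Slide 1 has 1 wild-type and slide 3 has 1 knock-in day-18 array. The members were called on these same arrays, so the kept signs are no separate test. The share over all called genes was not computed.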

How the data were processed

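Glands of 24 animals were measured on 3 slides of 8 arrays. Spots were read by the authors in a single colour with Agilent Feature Extraction 12.0.3.2, per the file headers. The deposited scanner files hold processed signals as intensity, background-subtracted within the array and not scaled between arrays. Values in the deposited matrix of the series are log10 of these signals (smallest correlation 0.99999). No source used here gives the authors' scaling between arrays.

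Processed signals were set to log2 after outlier spots were left out, replicate spots were averaged, and each array's 75th percentile over all 59305 non-control spots was subtracted. Probes were kept (35117) where 80% or more of a group's arrays had them well above background, and the probe of highest mean stood for its gene. Group means were fitted by limma 3.58.1 (R 4.3.3), with Benjamini-Hochberg adjustment over 22382 genes and calls at an adjusted p under 0.05. Errors after ± are standard errors. Exact permutation tests used every split of the animals. Members keep the names in the files. Where under 50% of the arrays of a group were above background, a fold is given only as a bound, and fitted log2 values of such genes are not measured changes. The fit was also run on simulated data with independent noise and no outlying array, so that run does not test the calls on these arrays. Per-animal values are given for the 14 called members of largest wild-type difference, Slc3a2, Slc38a2 and Slc6a14. Of each pathway list the 3 called genes of largest difference are named. Members, lists and the naming rule were chosen with earlier results of these data known. Precision is limited by the number of arrays. Separate animals are replicates. Alternatives covered background correction, scaling, filter, probe choice, slide and array weights, and single animals left out.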

Additional observations from a re-analysis of the deposited data

Results flagged for a closer look

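In each group of 5 or 7 animals the highest and lowest value of every tested member were set against the others by Dixon's test at the 95% level. Of 132 groups, 31 held an animal whose gap to its nearest neighbour passed, where chance gives about 1 in 20, and 20 of these were knock-in virgin 376, the array with the high background. Mouse 376 was lowest of the knock-in virgins for Slc1a4 at 0.023 against 1.21 for the next, Slc1a5 at 3.004, Slc36a2 at 1.90, Slc38a10 at 0.69, Slc38a2 at 0.54, Slc38a6 at −0.68, Slc38a7 at −1.10, Slc38a9 at 3.21, Slc3a2 at 1.83, Slc43a1 at −0.79, Slc43a2 at −0.62, Slc43a3 at 0.12 and Slc7a10 at 1.81. It was highest for Slc1a6 at −1.36 against −4.86, Slc1a7 at −0.59, Slc36a1 at −0.33, Slc38a8 at −0.015, Slc7a11 at −3.76, Slc7a14 at −0.996 and Slc7a5 at −1.33. The other gaps were spread over animals. Among the wild-type virgins, mouse 317 was lowest for Slc1a5 at 4.95 against 5.28, mouse 256 was highest for Slc1a6 at −4.44 against −5.16, mouse 320 was highest for Slc38a3 at −3.16 against −4.80, mouse 369 was highest for Slc3a2 at 3.89 against 3.65, mouse 317 was highest for Slc7a11 at −6.51 against −8.0000 and mouse 369 was lowest for Slc7a3 at −4.04 against −2.82. Among the knock-in day-18 mice, mouse 211 was highest for Slc38a7 at 0.63 against 0.19 and mouse 184 was highest for Slc7a14 at −2.33 against −2.83. Among the wild-type day-18 mice, mouse 233 was lowest for Slc38a7 at −0.27 against 0.33. Among the knock-in virgins, mouse 198 was lowest for Slc7a4 at −2.76 against −0.98 and mouse 384 was highest for Slc7a8 at 1.15 against 0.20.

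Of 44 groups of marker list scores, 10 held such an animal. Among the wild-type virgins, mouse 317 was lowest for basal and myoepithelial markers at 1.41 against 2.54 and mouse 317 was lowest for luminal epithelium markers at −0.47 against 0.97. Among the knock-in virgins, mouse 376 was lowest for endothelial markers at 0.55 against 1.71, mouse 376 was lowest for fibroblast and matrix markers at 3.91 against 5.44, mouse 198 was lowest for luminal epithelium markers at −3.81 against 0.40, mouse 198 was highest for skeletal muscle markers at 7.46 against 1.97, mouse 376 was highest for skin and hair markers at −0.63 against −1.64 and mouse 376 was lowest for white adipocyte markers at 3.57 against 5.12. Among the wild-type day-18 mice, mouse 234 was lowest for fibroblast and matrix markers at 3.03 against 3.88. Among the knock-in day-18 mice, mouse 239 was lowest for white adipocyte markers at 2.74 against 3.67.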

How the results depend on the processing

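No paired analysis was possible because every animal has its own number and none is in 2 groups. Each result was recomputed under 12 alternatives and with each of the 24 animals left out. Spike-in scaling moved the wild-type counts to 6 members higher and 19 lower and the knock-in counts to 8 and 12. Of all genes called with it, 7.72% and 10.5% were higher. All other counts of called members stayed within 1.5 times. With 1 animal left out, 11 members rose and 7 to 9 fell in wild type, 11 to 13 rose and 7 to 10 fell in knock-in mice, and 0 passed for genotype or interaction. Of members called in the scaling used here, Slc38a7 (both genotypes) and Slc7a6 (knock-in) changed sign, under spike-in scaling. With scaling to the spike-in probes the sign turned for Slc1a4 −0.57, Slc1a7 −0.87, Slc38a6 −0.74, Slc38a7 −0.25, Slc38a9 −0.87 and Slc7a6 −0.72 in wild type, and Slc1a4 −0.29, Slc38a1 −0.47, Slc38a6 −0.30, Slc38a7 −0.17, Slc38a9 −0.43, Slc7a3 −0.74 and Slc7a6 −0.35 in knock-in mice. With normexp background correction the sign turned for Slc1a6 0.31, Slc38a8 0.21, Slc38a9 −0.018, Slc7a14 0.15 and Slc7a3 0.13 in wild type, and Slc1a6 0.17, Slc7a14 0.052 and Slc7a2 0.066 in knock-in mice. With array weights the sign turned for Slc1a7 −0.099 in wild type, and Slc38a8 0.044, Slc7a14 0.048 and Slc7a2 0.081 in knock-in mice. With quantile normalization the sign turned for Slc38a8 0.11, Slc38a9 −0.31, Slc7a14 0.087 and Slc7a3 0.080 in wild type, and Slc38a9 −0.096, Slc7a14 0.033 and Slc7a2 0.25 in knock-in mice. With median scaling the sign turned for Slc38a8 0.12, Slc7a14 0.11 and Slc7a3 0.096 in wild type, and Slc7a14 0.019 and Slc7a2 0.16 in knock-in mice. With the mean over probes the sign turned for Slc38a1 −0.076 in knock-in mice. With mice 198, 376 and 184 left out together the sign turned for Slc7a14 0.022 in knock-in mice. With 1 animal left out the sign of members near 0 also turned, over ranges of Slc1a7 −0.11 to 0.24, Slc38a8 −0.16 to 0.076, Slc38a9 −0.050 to 0.17, Slc7a14 −0.14 to 0.020 and Slc7a3 −0.29 to 0.17 in wild type and Slc1a6 −0.89 to 0.27, Slc1a7 −0.72 to 0.19, Slc38a8 −0.63 to 0.14, Slc7a14 −0.29 to 0.083, Slc7a2 −0.22 to 0.16 and Slc7a3 −0.084 to 0.27 in knock-in mice. Calls also ended, with the adjusted p given, as follows. Scaling to the spike-in probes ended Slc1a1 (0.472), Slc38a2 (0.56), Slc3a2 (0.3) and Slc7a1 (0.125) in wild type, and Slc1a1 (0.52) and Slc38a2 (0.252) in knock-in mice. Normexp background correction ended Slc36a1 (0.248) in wild type, and Slc38a4 (0.158) in knock-in mice. Quantile normalization ended Slc36a1 (0.0713), Slc36a4 (0.305) and Slc38a7 (0.314) in wild type, and Slc36a4 (0.21), Slc38a4 (0.175), Slc38a7 (0.0684) and Slc7a6 (0.0857) in knock-in mice. Median scaling ended Slc36a1 (0.226), Slc36a4 (0.0595), Slc38a2 (0.0636), Slc38a7 (0.205) and Slc3a2 (0.0632) in wild type, and Slc36a1 (0.116), Slc38a4 (0.0957), Slc38a7 (0.194) and Slc7a6 (0.323) in knock-in mice. The mean over probes ended Slc36a1 (0.452) in wild type, and Slc36a1 (0.339) and Slc7a6 (0.263) in knock-in mice. No filter on dim probes ended Slc38a4 (0.059) and Slc7a6 (0.09) in knock-in mice. Array weights ended Slc38a4 (0.169) in knock-in mice. Mice 198, 376 and 184 left out together ended Slc38a4 (0.0838) and Slc7a6 (0.107) in knock-in mice. Slide as a block ended Slc7a6 (0.057) in knock-in mice. Mice 376 and 184 left out together ended Slc7a6 (0.07) in knock-in mice. Calls were gained by Slc1a6, Slc38a1, Slc38a10, Slc43a3, Slc7a14, Slc7a2, Slc7a3 and Slc7a8 with scaling to the spike-in probes, Slc1a6, Slc38a10 and Slc43a3 with mice 376 and 184 left out together, Slc1a6, Slc38a10 and Slc43a3 with mice 198, 376 and 184 left out together, Slc7a2, Slc7a8, Slc1a4, Slc38a10, Slc38a6 and Slc43a3 with array weights, Slc38a10 with quantile normalization and Slc43a3 with the mean over probes. With spike-in scaling Slc38a6 (adjusted p = 0.0242), Slc38a9 (adjusted p = 0.014) and Slc7a6 (adjusted p = 0.00769), whose signs turned, also became called falls in wild type. The cause of these changes was not tested. Dim members, with signals near background, limit what could be seen for Slc1a6, Slc1a7 and Slc7a11, and the values given above for Slc1a6 and Slc1a7 are fitted to such signals and are not measured changes.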
